A study of Mus musculus with 25 samples.

Results

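The genes described here are 50 members of the Wnt signalling pathway, read from arrays of the mammillary neuroepithelium of Lhx5 KO and WT mouse embryos. They were chosen by name and by role, without use of their values, and comprise 19 Wnt ligands, 4 R-spondins, 10 Frizzled receptors, 10 secreted antagonists and 7 targets and effectors, out of 18820 named genes on the array. All 50 were measured, each by a transcript cluster (the set of probes that the Affymetrix Mouse Gene 1.1 ST array assigns to a transcript) that carries its symbol alone. Values are log2 RMA values, that is probe intensities on a log2 scale after robust multiarray averaging, so that a difference of 1 is a doubling and levels of different genes are not compared with each other.

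The KO group held 13 arrays and the WT group 12, all of mammillary neuroepithelium from C57BL/6 embryos at E10.5, and the labels call them biological replicates. The mammillary neuroepithelium lies in the caudal hypothalamus and forms the mammillary body, which serves memory. Lhx5 encodes a LIM homeodomain transcription factor expressed there. The embryos labelled Lhx5 KO were Lhx5 fl/fl in the study's methods: both copies carry loxP sites in introns, no Cre had acted on them, all exons were still there, and the study treats the allele as a hypomorph. Since the exons remain, the Lhx5 cluster of the array is no check of these labels. The WT embryos are labelled wild type with nothing added. Each array holds the RNA of a dissected piece of tissue, so fewer cells of a type and less RNA per cell cannot be told apart.

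Wnt proteins are secreted, lipid-modified ligands that bind Frizzled receptors on the receiving cell. In the canonical branch this stabilises beta-catenin, which enters the nucleus and works with transcription factors of the TCF/LEF family, whereas other ligands act on cell polarity and movement without it. R-spondins raise the response by keeping Frizzled receptors at the cell surface, and secreted antagonists of the Sfrp, Dkk and Wif families lower it, the Sfrps by binding ligands and the Dkks by binding the co-receptors Lrp5 and Lrp6. Low Wnt activity favours a hypothalamic identity in fish and bird embryos, and the zebrafish antagonist genes sfrp1a and sfrp5 depend on lhx5. The comparison of KO with WT therefore asked whether ligands, receptors, antagonists or targets of the pathway stood at other levels in the mutant tissue.

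The deposited KO values form 2 sets. The mean of KO replicates 1 to 10 equalled the mean of KO replicates 11 to 13 to within 5.3e-06 for each of the 50 members (median over all probe sets 1.33e-06), whereas KO replicates 11 to 13 and WT differed by a median of 0.0796. No step that would do this is given in the sources used here. In the fit used here, every difference between KO and WT is that of KO replicates 11 to 13 against WT. KO replicates 1 to 10 then bear only on the spread. This is a choice of the fit, since equal means do not show which set, if either, was set to the other. The fit used here has a term for KO replicates 1 to 10, and the fit with genotype alone, which takes all 13 arrays as evidence of the difference, has standard errors smaller by a factor of 1.65 and is given beside it. Of the markers of the labelled tissue, the means of Foxb1, Sim1, Sim2, Lhx1, Nkx2-1 and Otp all lay above the median level of all clusters (4.69) in both groups. On single KO arrays Otp fell below it, at 4.58 in KO replicate 13 and down to 3.73 in KO replicates 1 to 10. WT replicate 10 stood apart from the other WT arrays in its neighbouring-tissue markers, with a mean of 8.07 over 5 floor plate genes (other WT arrays 6.52 to 7.24) and of 6.15 over 7 midbrain and isthmus genes (other WT arrays 4.37 to 5.10), so results that rest on it are given with and without it.

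None of the 50 members was called in the fit with the term at an adjusted p below 0.05 (limma, Benjamini-Hochberg over 28940 clusters), where 7 clusters in all, or 0.0242%, were called. The smallest adjusted p of a member was 0.323. At an unadjusted p below 0.05 there were 2 members, Wnt5a and Wnt5b, or 4.0%, against 10.3% of all clusters, and both were higher in KO, as were 6.2% of all clusters, against 4.15% that were lower. With genotype alone 4 members were called, or 8.0%, against 16.7% of all clusters. Of these, Wnt5a, Wnt5b and Dkk2 were higher in KO (9.68% of all clusters) and Wnt7b was lower (6.99%). The study's stated rule of an unadjusted p below 0.05 and a change of at least 1.5-fold, applied here with genotype alone, took Wnt5a and Wnt7b, where it took 0.532% of all clusters. The study's own list of changed genes holds Wnt5a but not Wnt7b. The study followed Wnt5a by qPCR, where it reports a rise in the mutant, and by in situ hybridization. There it describes ectopic expression in the mutant mammillary body at a later stage. It calls the increase of Wnt5a very small, and it saw no sign of change in other genes of the pathway. In 0 members did all of KO replicates 11 to 13 lie above or below every WT array, as they did in 1.15% of all clusters. The members' differences were split evenly, with 24 positive and 26 negative, and their median size was 0.0857, against 0.0796 over all clusters. The members' share was thus below that of the array at either p, and above it by the study's rule, where the 2 members make 4.0%.

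**Figure D1:**
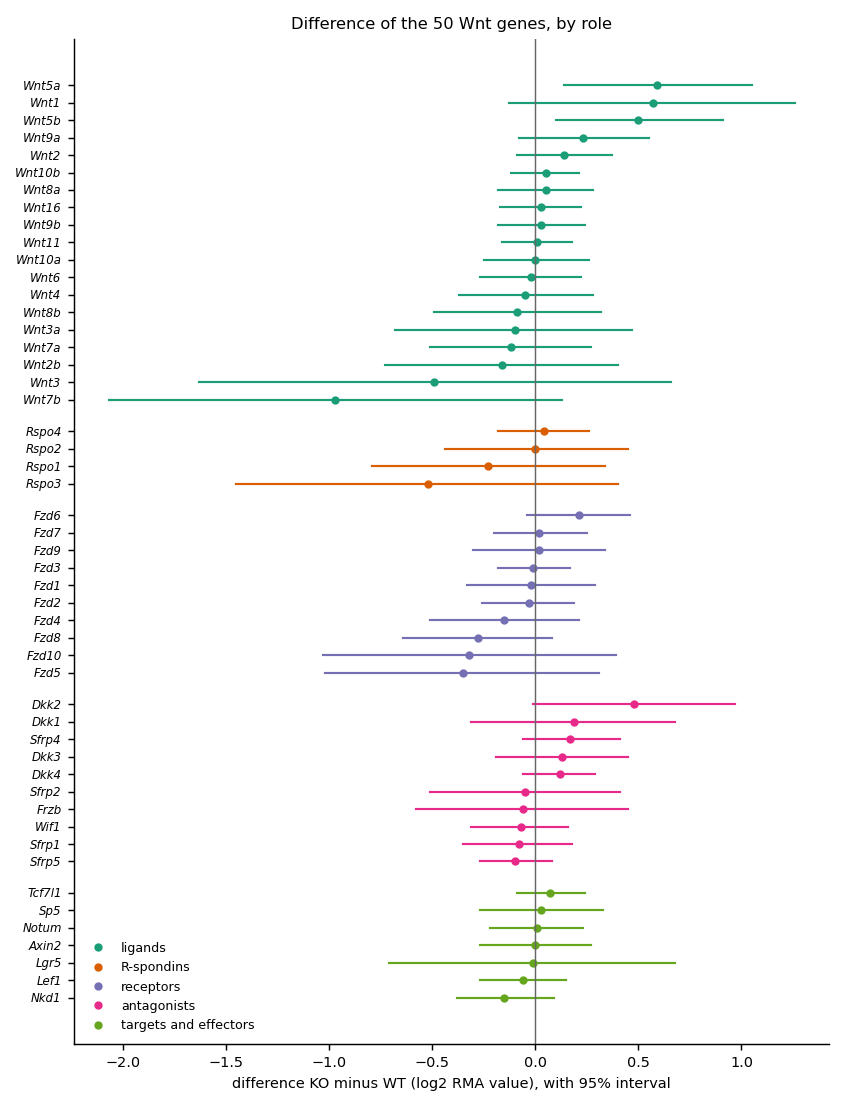
Difference of each of the 50 members (x axis, KO minus WT in log2 RMA values, with the 95% interval of the fit with the term), ordered within role from the highest to the lowest difference and coloured by role. The intervals of Wnt5a (0.14 to 1.05) and Wnt5b (0.10 to 0.91) lie above 0, and the widest are those of Wnt3 (-1.63 to 0.66) and Wnt7b (-2.07 to 0.13).

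Among the 19 ligands, Wnt5a had the smallest p. Wnt5a is the ligand best known for signalling without beta-catenin, and it is expressed in the ventral midline of the early mouse midbrain. Its cluster (10413482, gene on chromosome 14) stood at 8.52, 8.64 and 9.05 in KO replicates 11, 12 and 13, ran from 8.35 to 9.15 with a median of 8.77 in KO replicates 1 to 10, and ran from 7.50 to 9.10 with a median of 8.10 in WT. The KO values lay in the upper part of the WT range and overlapped it, since WT replicate 10, at 9.10, was above all 3 of KO replicates 11 to 13. The means were 8.73 ± 0.27 (SD, n = 13) in KO and 8.14 ± 0.43 (SD, n = 12) in WT. This difference of 0.59 ± 0.22 (SE), or 1.51-fold, had p = 0.0122 and an adjusted p of 0.323 with the term, and an adjusted p of 0.00374 with genotype alone. In a two-sided exact permutation test of KO replicates 11 to 13 against WT over the 455 splits into 3 and 12 arrays, p was 0.0374, where the smallest p these splits allow is 0.0022. Without WT replicate 10 the highest WT value was 8.57, 2 of the 3 KO arrays lay above it, and the difference was 0.68 ± 0.18 (p = 0.00114, adjusted p = 0.152). Without KO replicate 13 it was 0.44 ± 0.26 (p = 0.104).

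Wnt5b, the closest relative of Wnt5a, was higher in KO by a like amount. It stood at 5.98, 6.25 and 6.59 in KO replicates 11, 12 and 13, from 5.71 to 6.80 (median 6.27) in KO replicates 1 to 10 and from 5.22 to 6.28 (median 5.73) in WT. Of KO replicates 11 to 13, only replicate 13 lay above every WT array. The difference was 0.50 ± 0.20, or 1.42-fold, with p = 0.0159 and an adjusted p of 0.346 with the term, 0.00504 with genotype alone, and p = 0.0462 in the exact permutation test. It was 0.54 ± 0.19 without WT replicate 10 and 0.35 ± 0.23 (p = 0.143) without KO replicate 13. Over the 25 fits that left out 1 array each, Wnt5a and Wnt5b both kept an unadjusted p below 0.05 in 24, the exception for each being the fit without KO replicate 13. Leaving out an array of KO replicates 1 to 10 cannot move the difference in this fit, only its p. The cluster of Wnt5b is 10547396 and its gene lies on chromosome 6.

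Wnt7b, a ligand of the forebrain and of other epithelia that can act through beta-catenin, differed the other way and far more between arrays. Its cluster (10431210, gene on chromosome 15) stood at 7.03, 5.87 and 5.65 in KO replicates 11, 12 and 13. In KO replicates 1 to 10 it ran from 4.78 to 7.30 (median 6.57), and in WT from 4.86 to 8.14 (median 7.32). WT replicate 10 was the lowest WT array by far, the next one being at 6.54, and it lay below all of KO replicates 11 to 13. The means were 6.19 ± 0.88 (SD, n = 13) in KO and 7.15 ± 0.87 (SD, n = 12) in WT. The difference was -0.97 ± 0.53, a ratio of 0.511, with p = 0.0808 and an adjusted p of 0.550 with the term, 0.0404 with genotype alone, and p = 0.0923 in the exact permutation test. Without WT replicate 10 it was -1.18 ± 0.45 (p = 0.0150, adjusted p = 0.321), and 2 of the 3 KO arrays then lay below every other WT array.

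Wnt1, the ligand that marks the midbrain roof and its border with the hindbrain, stood at 5.74, 6.10 and 6.64 in KO replicates 11, 12 and 13, from 5.30 to 7.09 (median 6.18) in KO replicates 1 to 10 and from 4.66 to 6.77 (median 5.54) in WT. No array of KO replicates 11 to 13 lay outside the WT range, and the difference of 0.57 ± 0.34 had p = 0.107 (adjusted p = 0.591, and 0.0587 with genotype alone). It was 0.67 ± 0.31 (p = 0.0398) without WT replicate 10 and 0.33 ± 0.40 (p = 0.421) without KO replicate 13. Wnt3, a canonical ligand, spread the most of all members, with 4.25, 5.94 and 4.83 in KO replicates 11, 12 and 13, from 3.29 to 6.92 (median 5.15) in KO replicates 1 to 10 and from 4.12 to 6.81 (median 5.33) in WT. Its difference of -0.49 ± 0.56 (p = 0.393) could lie anywhere from -1.63 to 0.66, and it was -0.95 without KO replicate 12 and -0.11 without KO replicate 11.

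The other 14 ligands had differences between -0.16 (Wnt2b) and 0.23 (Wnt9a), with unadjusted p from 0.137 upwards. Wnt8b, a ligand of the dorsal forebrain midline and the caudal hypothalamus, stood at 7.42, 8.14 and 7.53 in KO replicates 11, 12 and 13 and from 7.32 to 8.22 in WT, a difference of -0.09 ± 0.20. Wnt3a and Wnt7a had -0.10 ± 0.28 and -0.12 ± 0.19. In all, 9 of the 19 ligands lay below the median level of all clusters (4.69), among them Wnt10b at 3.13 in KO and 3.08 in WT, and Wnt11 at 3.72 in KO and 3.71 in WT.

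**Figure D2:**
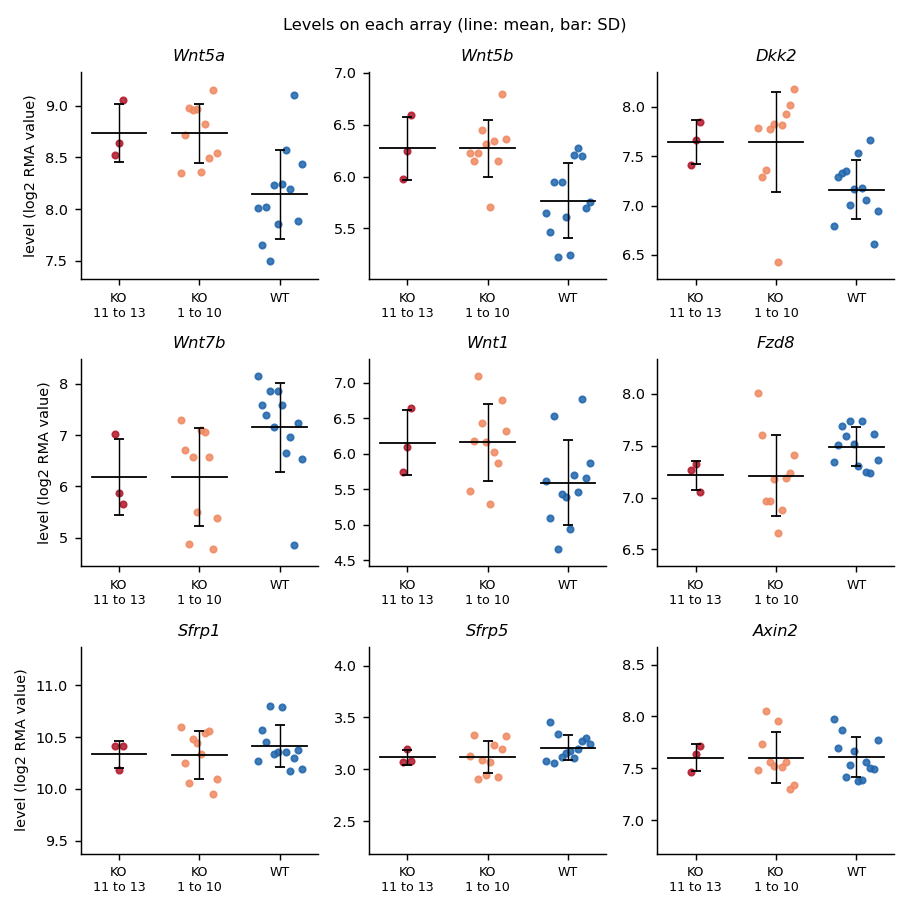
Level of 9 members (y axis, log2 RMA value) on each array of KO replicates 11 to 13, KO replicates 1 to 10 and WT, with the mean as a line and the SD as a bar, and a y axis of its own in each panel. The means of both KO sets coincide in every panel, and for Wnt5a, Wnt5b and Dkk2 they stand above the WT mean although the arrays overlap, whereas for Axin2 all 3 of KO replicates 11 to 13 (7.46 to 7.71) lie inside the WT range (7.38 to 7.98).

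The 4 R-spondins gave no p under 0.256. Rspo3, which is expressed in the dorsal midline of the early brain, stood at 4.98, 5.79 and 4.96 in KO replicates 11, 12 and 13, from 4.55 to 7.45 (median 5.11) in KO replicates 1 to 10 and from 5.11 to 7.51 (median 5.44) in WT. Of KO replicates 11 to 13, 2 lay below every WT array, but the third lay within the WT range, and the difference was -0.52 ± 0.45 (adjusted p = 0.740). Rspo1 stood at 7.41, 7.58 and 6.43 in KO replicates 11, 12 and 13, from 6.47 to 7.82 (median 7.13) in KO replicates 1 to 10 and from 6.68 to 8.29 (median 7.23) in WT. Its difference of -0.23 ± 0.27 hung on KO replicate 13, without which it was 0.13 ± 0.30. Rspo2 and Rspo4 had 0.00 ± 0.22 and 0.04 ± 0.11.

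Of the 10 Frizzled receptors, 3 had positive and 7 negative differences. Fzd8, a receptor of the anterior brain, stood at 7.27, 7.32 and 7.05 in KO replicates 11, 12 and 13, from 6.66 to 8.01 (median 7.18) in KO replicates 1 to 10 and from 7.24 to 7.74 (median 7.52) in WT. The 3 KO arrays lay at the lower edge of the WT range, 1 of them below it. The difference of -0.28 ± 0.17 had p = 0.118 (adjusted p = 0.606) with the term and p = 0.0418 in the exact permutation test, whose spread comes from KO replicates 11 to 13 and WT alone. In those 15 arrays Fzd8 varied less than in KO replicates 1 to 10, with an SD of 0.14 in KO replicates 11 to 13, 0.39 in KO replicates 1 to 10 and 0.19 in WT. Fzd6, which in mammals acts in the polarity branch, stood at 5.74, 5.72 and 5.53 in KO replicates 11, 12 and 13, from 5.41 to 5.87 in KO replicates 1 to 10 and from 5.16 to 6.03 in WT. Its difference of 0.21 ± 0.12 (p = 0.101) became 0.26 ± 0.10 (p = 0.0141, adjusted p = 0.314) without WT replicate 10, which held the highest WT value.

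Fzd10, a receptor of the dorsal neural tube and midbrain, stood at 6.18, 6.73 and 6.52 in KO replicates 11, 12 and 13, from 5.42 to 7.37 (median 6.63) in KO replicates 1 to 10 and from 6.15 to 7.76 (median 6.67) in WT. All 3 KO arrays lay inside the WT range, and the difference was -0.32 ± 0.35 (p = 0.362). Fzd5, needed for hypothalamic and eye development in vertebrates, had -0.35 ± 0.32 (p = 0.286). The differences of Fzd1 (-0.02 ± 0.15), Fzd2 (-0.03 ± 0.11), Fzd3 (-0.01 ± 0.09) and Fzd7 (0.02 ± 0.11) had 95% intervals that stayed within -0.33 and 0.29.

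Among the antagonists, Sfrp1 and Sfrp5 are the mouse relatives of the lhx5-dependent zebrafish genes, and both had differences close to 0. Sfrp1 stood at 10.41, 10.18 and 10.41 in KO replicates 11, 12 and 13, from 9.95 to 10.60 (median 10.39) in KO replicates 1 to 10 and from 10.17 to 10.80 (median 10.36) in WT. The 3 KO values lay within the WT range, and the difference of -0.08 ± 0.13 (p = 0.526, adjusted p = 0.872) had a 95% interval from -0.35 to 0.18. Sfrp5 was near the floor of the array in both groups, at 3.07, 3.20 and 3.08 in KO replicates 11, 12 and 13, from 2.91 to 3.33 in KO replicates 1 to 10 and from 3.06 to 3.46 in WT. Its difference was -0.10 ± 0.09 (p = 0.270, 95% interval -0.27 to 0.08). For Sfrp1 a fall by more than 0.35 in this tissue as a whole was outside the interval, whereas Sfrp5 stood so low in WT that a fall was not detectable. Sfrp2 had -0.05 ± 0.22 and Frzb -0.06 ± 0.25.

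Dkk2 had the smallest p among antagonists. It stood at 7.41, 7.67 and 7.85 in KO replicates 11, 12 and 13, from 6.43 to 8.18 (median 7.80) in KO replicates 1 to 10 and from 6.61 to 7.67 (median 7.18) in WT. KO replicates 12 and 13 lay above every WT array, replicate 12 by a margin smaller than the second decimal. The difference of 0.48 ± 0.24, or 1.40-fold, had p = 0.0522 (adjusted p = 0.489) with the term, an adjusted p of 0.0227 with genotype alone, and p = 0.0220 in the exact permutation test. It was 0.53 ± 0.23 (p = 0.0328) without WT replicate 10, the highest WT array, and 0.38 ± 0.28 (p = 0.192) without KO replicate 13. The cluster of Dkk2 is 10496125 and its gene lies on chromosome 3. Sfrp4, dim at 3.98, 4.07 and 3.91 in KO replicates 11, 12 and 13 and from 3.59 to 4.03 in WT, had 0.17 ± 0.11 (p = 0.147). Dkk1, Dkk3 and Dkk4 were also on the positive side, with 0.19 ± 0.24, 0.13 ± 0.16 and 0.12 ± 0.08, none with p under 0.05, and Wif1 had -0.07 ± 0.11. Both Dkk4 (means 2.99 in KO and 2.88 in WT) and Wif1 (3.31 in KO and 3.38 in WT) were near the floor of the array.

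Over the 50 members, the exact test of KO replicates 11 to 13 against WT gave an unadjusted p below 0.05 for 4, or 8.0%, namely Wnt5a, Wnt5b, Fzd8 and Dkk2, and over all clusters for 10.2%. The members' share was thus below that of the array. Among the 17 members given in full, which hold these 4 and were in part chosen for a small p on the same arrays, the count was 0 without KO replicate 13 and 6 without WT replicate 10.

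The targets and effectors, several of which respond to canonical signalling in many tissues, had a median size of the difference of 0.029, the smallest of the 5 roles. Axin2, a feedback inhibitor that is switched on by beta-catenin in most tissues, stood at 7.46, 7.64 and 7.71 in KO replicates 11, 12 and 13 and from 7.38 to 7.98 in WT, a difference of -0.00 ± 0.13 (95% interval -0.27 to 0.27). Lef1, a TCF/LEF factor and itself a target, stood at 8.21, 8.29 and 8.57 in KO replicates 11, 12 and 13, from 8.15 to 8.64 (median 8.32) in KO replicates 1 to 10 and from 8.16 to 8.69 (median 8.43) in WT. Both groups covered nearly the same range, and the difference was -0.06 ± 0.10 (adjusted p = 0.888).

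Tcf7l1, a TCF factor that mostly represses its targets and is needed for the anterior brain, stood at 8.88, 9.03 and 8.96 in KO replicates 11, 12 and 13 and from 8.73 to 9.14 in WT, a difference of 0.07 ± 0.08. Nkd1, another feedback inhibitor, stood at 8.75, 8.49 and 8.66 in KO replicates 11, 12 and 13 and from 8.49 to 9.07 in WT, a difference of -0.15 ± 0.11 (p = 0.213). Sp5, a transcription factor gene that responds to Wnt in many settings, had 0.03 ± 0.14. Lgr5, an R-spondin receptor, had -0.01 ± 0.34 with a wide spread between arrays, and Notum, which inactivates Wnt ligands, was dim in its 2 clusters (0.01 ± 0.11 and 0.05 ± 0.10). For Axin2, Lef1, Tcf7l1 and Nkd1 the 95% intervals lay within -0.38 and 0.27, so a change of 1.5-fold in the tissue as a whole was outside them.

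The sequence before the start of some members was looked at because Wnt5b and Dkk2 were among the members called with genotype alone, and Sp5 serves as a known target beside them. Windows of 250 bases upstream of RefSeq starts (GRCm38.p6) were at hand for 34 of the 50 members, in 40 windows. The TCF/LEF core CTTTGA, on either strand, was in 7 of the 40 windows, of Dkk1, Frzb, Fzd1, Lef1, Sp5, Wnt11 and Wnt5b, and in 13.8% of the 32851 windows of all genes. The homeodomain core TAATTA was in 1 of the 40 windows, of Wnt8b, and in 4.84% of all. No test was made of these shares, and a match is a stretch of letters and not a shown binding site. In the windows below, written 5′ to 3′ on the strand of the gene, capitals mark the core. Sp5 (chr2:70474673-70474922, + strand) holds it at 2 places, the most downstream of the 3 starts of Wnt5b (chr6:119449387-119449636, - strand) holds it once, and neither Dkk2 (chr3:132085042-132085291, + strand) nor Sfrp5 (chr19:42202253-42202502, - strand) holds it.
Wnt5b: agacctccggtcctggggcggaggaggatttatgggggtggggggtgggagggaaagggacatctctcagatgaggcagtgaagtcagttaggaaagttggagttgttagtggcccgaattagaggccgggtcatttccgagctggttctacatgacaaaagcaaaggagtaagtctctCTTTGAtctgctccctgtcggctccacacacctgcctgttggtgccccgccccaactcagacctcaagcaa
Dkk2: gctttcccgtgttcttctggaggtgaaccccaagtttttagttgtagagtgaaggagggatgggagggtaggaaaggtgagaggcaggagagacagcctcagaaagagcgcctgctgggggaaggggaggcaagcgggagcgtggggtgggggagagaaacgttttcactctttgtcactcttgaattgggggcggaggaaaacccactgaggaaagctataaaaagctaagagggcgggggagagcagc
Sfrp5: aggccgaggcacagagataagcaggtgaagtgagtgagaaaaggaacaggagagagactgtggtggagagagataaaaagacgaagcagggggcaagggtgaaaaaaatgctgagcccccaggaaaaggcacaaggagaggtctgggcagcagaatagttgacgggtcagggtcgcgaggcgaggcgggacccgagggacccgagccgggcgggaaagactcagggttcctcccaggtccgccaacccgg
Sp5: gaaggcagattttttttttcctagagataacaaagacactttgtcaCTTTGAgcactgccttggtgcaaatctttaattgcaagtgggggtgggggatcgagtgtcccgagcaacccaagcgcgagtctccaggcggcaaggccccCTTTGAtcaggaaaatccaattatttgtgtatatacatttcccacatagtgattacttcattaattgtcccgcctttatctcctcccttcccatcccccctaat

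Many members spread widely between arrays of the same set, a measure that does not depend on the difference between KO and WT. The SD within the 3 sets (KO replicates 11 to 13, KO replicates 1 to 10 and WT, pooled) was above 0.267, the 90th percentile of all clusters, in 21 of the 50 members, and its median was 0.25 over the members and 0.15 over all clusters. By role, 9 of 19 ligands, 3 of 4 R-spondins, 4 of 10 receptors, 4 of 10 antagonists and 1 of 7 targets and effectors were above it. The 5 members with the largest SD were Wnt3 (0.94), Wnt7b (0.89), Rspo3 (0.75), Fzd10 (0.58) and Wnt1 (0.57). This is a description, and the members were not matched to other genes for level.

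**Figure D3:**
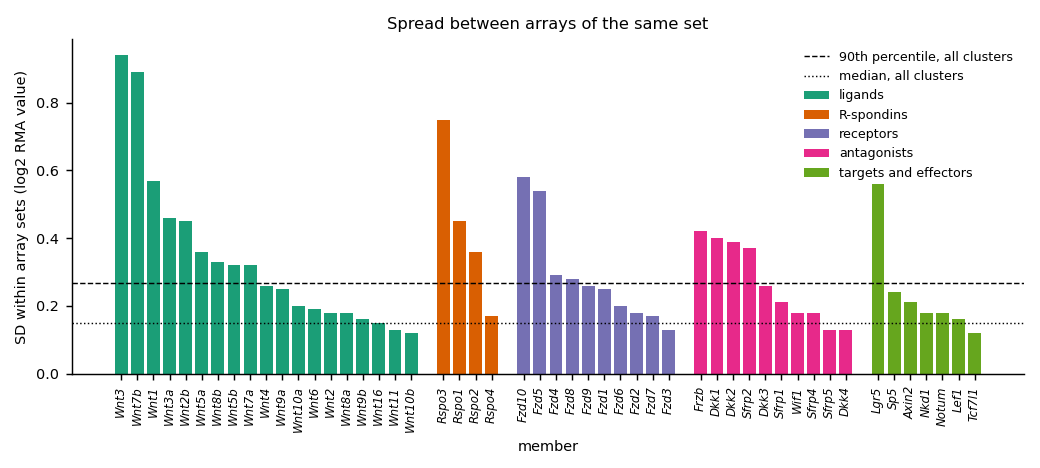
SD of each member between arrays of the same set (y axis, log2 RMA value, pooled over KO replicates 11 to 13, KO replicates 1 to 10 and WT), with bars coloured by role and lines at the median (0.15) and the 90th percentile (0.267) of all clusters. Wnt3, Wnt7b and Rspo3 have the tallest bars, and among targets and effectors Lgr5 (0.56) alone passes the upper line.

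The 5 most variable members were then set against the mean level of 4 lists of markers of neighbouring tissue (midbrain and isthmus, floor plate, telencephalon, cranial mesenchyme), within KO replicates 1 to 10 and within WT, which made 40 relations. After the data were seen, Wnt5a, Wnt5b and Dkk2 against the same lists and the pairs among the 5 members were added, for 84 in all. Of the 40, 1 passed an adjusted p of 0.05, and of the 84, 18 did with Pearson's r and 7 with Spearman's rho. Adjusted p below are over the 84 unless said otherwise. The points of a relation share 1 normalization, and member and markers come from the same RNA.

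Wnt7b was lower on WT arrays with higher floor plate markers. Its r with the floor plate list was -0.42 in KO replicates 1 to 10 (permutation p = 0.238, and 0.04 without the 2 farthest arrays), and -0.93 over the 12 WT arrays (permutation p = 0.00011, adjusted p = 0.00440 over the 40 relations and 0.00378 over the 84). In WT its rho was -0.90 (permutation p = 0.00018, adjusted p = 0.0151), and r was -0.89 without WT replicates 10 and 2, the arrays farthest from the median of the list. The difference between the sets was not tested, and with WT replicate 10 alone left out 0 of the 40 relations passed. With the midbrain and isthmus list Wnt7b had r = -0.53 in KO (permutation p = 0.114) and -0.88 in WT (permutation p = 0.00295, adjusted p = 0.0590 over the 40 and 0.0206 over the 84, rho = -0.60), and the WT value rested on WT replicates 10 and 8, without which it was -0.40.

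Wnt5a went with the same markers in the other direction and in both sets. Its r with the floor plate list was 0.76 over 10 KO arrays (permutation p = 0.00853, adjusted p = 0.0456) and 0.86 over 12 WT arrays (permutation p = 0.00094, adjusted p = 0.0126). Its rho with that list was 0.68 in KO (permutation p = 0.0347, adjusted p = 0.117) and 0.83 in WT (permutation p = 0.00121, adjusted p = 0.0371), and r without the 2 farthest arrays was 0.57 in KO and 0.62 in WT. With the midbrain and isthmus list, r was 0.85 in KO (permutation p = 0.00287, adjusted p = 0.0206) and 0.87 in WT (permutation p = 0.00018, adjusted p = 0.00378), and without the 2 farthest arrays 0.77 in KO and 0.64 in WT. Its rho there was 0.85 in KO and 0.80 in WT (adjusted p = 0.0371 for each). Wnt5b followed the floor plate list in KO, with r = 0.91 (permutation p = 0.00018, adjusted p = 0.00378) and rho = 0.85 (permutation p = 0.00301, adjusted p = 0.0371), and 0.77 without the 2 farthest arrays. In WT its r was 0.62 (permutation p = 0.0241, adjusted p = 0.0816), or 0.55 without the 2 farthest arrays, and its rho 0.80 (permutation p = 0.00309, adjusted p = 0.0371). Dkk2 had r = 0.78 with the same list in KO (permutation p = 0.0150, adjusted p = 0.0620), which was 0.27 without KO replicates 6 and 9, and r = 0.41 in WT (permutation p = 0.181). With the cranial mesenchyme list Dkk2 had r = 0.58 in KO (permutation p = 0.0866) and 0.72 in WT (permutation p = 0.00893, adjusted p = 0.0456, rho = 0.61), and the WT value was 0.31 without WT replicates 11 and 1. The other relations past 0.05 over the 84 alone, with an adjusted p of 0.0657 over the 40, were Wnt7b with the telencephalon list in KO (r = 0.68) and Wnt3 in WT with the floor plate list (r = -0.69) and the telencephalon list (r = 0.70).

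**Figure D4:**
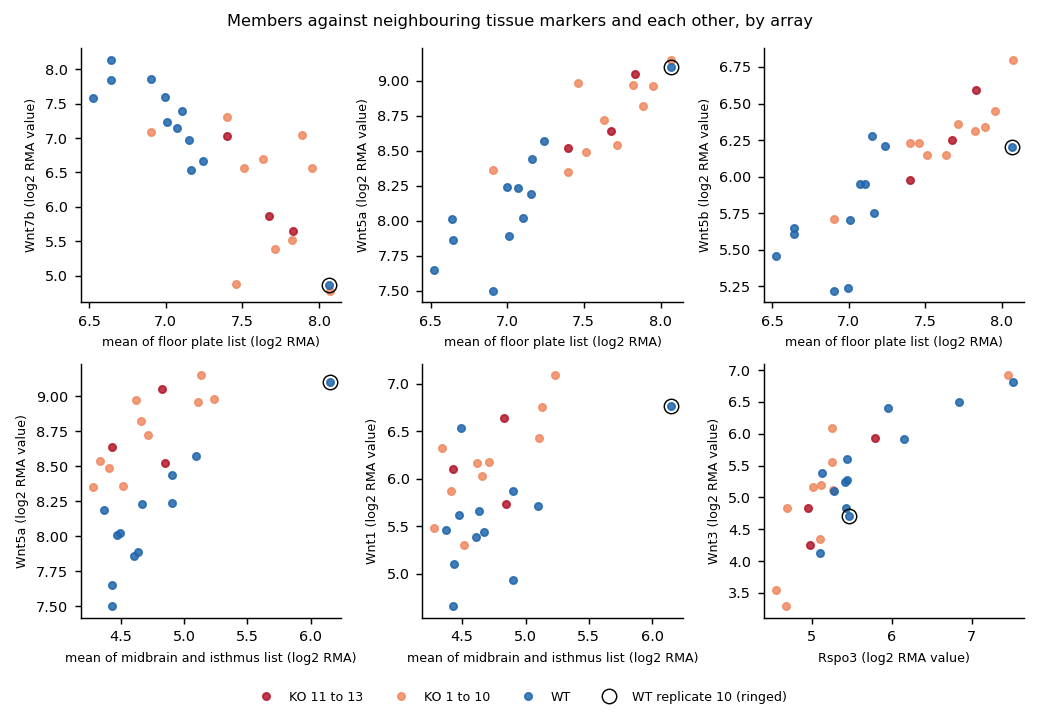
Each point is 1 array, coloured by set, with WT replicate 10 ringed: level of Wnt7b, Wnt5a, Wnt5b and Wnt1 (y axis, log2 RMA value) against the mean level of a marker list, and of Wnt3 against Rspo3 (x axis, log2 RMA value). WT replicate 10 lies at the high end of both lists (8.07 for floor plate, 6.15 for midbrain and isthmus), with Wnt5a at 9.10 and Wnt7b at 4.86.

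The floor plate list itself stood higher in KO, beside the higher values of Wnt5a, Wnt5b and Dkk2 and the lower ones of Wnt7b. Its mean over 5 genes was 7.40, 7.68 and 7.83 in KO replicates 11, 12 and 13, from 6.91 to 8.07 in KO replicates 1 to 10 and from 6.52 to 8.07 in WT, a difference of 0.59, or 0.68 without WT replicate 10. All 5 measured genes had positive differences, from 0.19 (Shh) to 0.98 (Corin), 0 of them were called with the term and 4 with genotype alone, and none lay below the median level of all clusters. The study reports Shh expression in the hypothalamus itself, over a wider midline domain in the mutant at later stages. Shh is thus not a marker of neighbouring tissue alone. Corin and Ferd3l (0.92) are on the study's own list of genes higher in KO in this comparison. The list's difference is thus in part that of genes already reported as higher. Foxa1 and Foxa2 had 0.47 and 0.40. The midbrain and isthmus list did not stand higher, with 4.70 ± 0.31 (SD, n = 13) in KO and 4.76 ± 0.49 (SD, n = 12) in WT. That difference of -0.06 was 0.06 without WT replicate 10. On that list 4 of 7 genes were below the median level of all clusters. The telencephalon list stood at 6.18 ± 0.35 in KO and 6.33 ± 0.33 in WT. Other lists differed as well. All 7 genes of surface and oral ectoderm had positive differences, and their mean ran from 5.67 to 6.95 in KO replicates 1 to 10, from 5.96 to 6.76 in KO replicates 11 to 13 and from 5.54 to 6.57 in WT, a difference of 0.28. The gene with the smallest p there was Esrp1 (0.60 ± 0.27, p = 0.0366, adjusted p = 0.444). All 6 endothelial genes were positive too, with a list difference of 0.15, as were 7 of 8 cranial mesenchyme genes, with 0.10. All 4 measured neuronal genes were negative, with 7.88 ± 0.33 in KO and 8.14 ± 0.48 in WT. The markers of the mammillary neuroepithelium itself differed by -0.24, with Otp the farthest apart (-1.28 ± 0.55, p = 0.0267, adjusted p = 0.404, and 0.00970 with genotype alone). Of these 6 markers, 2 were positive, Sim1 (0.33) and Lhx1 (0.10), and 4 negative. Besides Otp the negative ones were Foxb1 (-0.16), Sim2 (-0.09) and Nkx2-1 (-0.33), so the list difference came largely from Otp. None of these genes was called with the term. Esrp1 and Otp are on the study's own list of changed genes as well. The part of these tissues in the differences of the Wnt genes was not tested.

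Wnt1 followed the midbrain and isthmus list in KO replicates 1 to 10, with r = 0.80 (permutation p = 0.00589, adjusted p = 0.0657 over the 40, where it did not pass, and 0.0381 over the 84) and rho = 0.76 (permutation p = 0.0152, adjusted p = 0.0798), but r was 0.55 without KO replicates 3 and 9. In WT its r of 0.59 (permutation p = 0.0512, rho = 0.52) was 0.04 without WT replicates 10 and 8 and thus rested on them. Wnt1 and Wnt7b ran against each other, with r = -0.83 in KO (permutation p = 0.00199, adjusted p = 0.0206) and -0.68 in WT (permutation p = 0.0155, adjusted p = 0.0620). Their rho was -0.81 in KO (adjusted p = 0.0573) and -0.68 in WT (adjusted p = 0.0854), and r without the 2 farthest arrays -0.77 in KO and -0.57 in WT. Wnt3, Rspo3 and Fzd10, on the other hand, varied together. Wnt3 and Rspo3 had r = 0.79 in KO (permutation p = 0.00101, adjusted p = 0.0126) and 0.84 in WT (permutation p = 0.00011, adjusted p = 0.00378), with a rho of 0.81 in KO and 0.76 in WT (adjusted p = 0.0538 for each). Without the 2 farthest arrays r was 0.72 in KO and 0.73 in WT. Wnt3 and Fzd10 had r = 0.83 in KO (permutation p = 0.00265, adjusted p = 0.0206) and 0.79 in WT (permutation p = 0.00264, adjusted p = 0.0206), with a rho of 0.85 in KO (adjusted p = 0.0371) and 0.65 in WT (adjusted p = 0.103), and r was 0.64 in KO and 0.60 in WT without the 2 farthest arrays. Rspo3 and Fzd10 had r = 0.44 in KO (permutation p = 0.211) and 0.80 in WT (permutation p = 0.00105, adjusted p = 0.0126, rho = 0.73, and 0.68 without the 2 farthest arrays).

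Of 46 further genes of the pathway, 43 were measured by a cluster of their own, and 0 were called with the term. At an unadjusted p below 0.05 there was 1, Porcn, the acyltransferase that attaches the lipid to Wnt ligands, which stood at 6.28, 6.37 and 6.41 in KO replicates 11, 12 and 13 and from 6.09 to 7.05 (median 6.73) in WT. Its 3 KO values lay in the lower part of the WT range. Porcn, a gene of chromosome X, had a difference of -0.34 ± 0.15 (p = 0.0359, adjusted p = 0.441, and 0.0140 with genotype alone). With genotype alone 5 of the 43 were called, or 11.6%, against 16.7% of all clusters: Porcn lower, and Sost (0.20 ± 0.11), Dact2 (0.16 ± 0.09), Vangl1 (0.25 ± 0.14) and Celsr1 (0.26 ± 0.15) higher. Sost and Dact2 encode inhibitors and were dim, while Vangl1 and Celsr1 encode membrane proteins of planar cell polarity.

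By group, the 10 co-receptors and other receptors had differences from -0.13 to 0.14, Lgr6 having the smallest p (-0.09 ± 0.07, p = 0.226), and the 12 measured genes of cytoplasmic and nuclear transduction from -0.19 to 0.05, Gsk3b having the smallest (-0.13 ± 0.08, p = 0.116). Ctnnb1, which encodes beta-catenin, had -0.07 ± 0.05. The 12 other inhibitors ran from -0.11 (Draxin) to 0.63 (Shisa3, 0.63 ± 0.55), and the 7 planar cell polarity genes from -0.12 to 0.26. Wls, which carries Wnt ligands to the cell surface, had 0.11 ± 0.10.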

How the data were processed

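Total RNA from the dissected tissue was read on Affymetrix Gene 1.1 ST mouse arrays. The authors deposited log2 values made by RMA (Affymetrix Expression Console 1.0, affy and R 2.7.0 in their processing notes), and per the labels each column is 1 biological replicate of the KO or WT group. The precision is limited by the number of arrays. Among the deposited values, 14 cells (32.32 to 10464) lay above 14, which RMA does not give, and were taken as missing, none in a cluster of a member, and because of such cells 10 columns were registered as score values although their other values are log2. Of 35556 probe sets, 6616 with identifiers below the first annotated one were left out and 28940 tested. Of those tested, 5841 carry no gene symbol and count among all clusters. Where a gene had several single-symbol clusters the brightest stood for it.

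Clusters were fitted with limma 3.58.1 (R 4.3.3) with genotype and a term for KO replicates 1 to 10, moderated variances and Benjamini-Hochberg adjustment, two-sided, and called at an adjusted p below 0.05. The model was run on simulated data with independent noise, where the means of KO replicates 1 to 10 and KO replicates 11 to 13 were set equal. Such data hold no variation shared between genes, so that run does not bear on arrays that differ in tissue markers. Correlations had 100000 permutations. Members given in full were those called in either fit or with p below 0.05, the 2 with the smallest p of each role, Wnt5a, Lef1, Sfrp1, Sfrp5 and the 5 with the largest spread. Other members are given by range and counts. The members and lists were chosen with earlier results of these data known. Alternatives were genotype alone, KO replicates 11 to 13 with WT only, a replicate block, repeated quantile normalization, median centring, dim clusters left out, array weights, limma-trend, other thresholds and each array left out. Promoter windows came from RefSeq (GRCm38.p6), which matched 34 members. Lmx1a, Tubb3, Elavl3, Dvl2, Gsk3a and Tcf7, among the genes listed, had no cluster of their own symbol alone and were not analysed here. Figures were drawn with matplotlib 3.10.9.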

Additional observations from a re-analysis of the deposited data

Results flagged for a closer look

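Among the 50 members in KO replicates 1 to 10, 2 values stood far from the rest of their set, both on KO replicate 6. Rspo3 was at 7.45 there, with the next array at 5.27, a gap of 0.75 of the whole range, and Dkk2 was at 6.43, with the next array at 7.29, a gap of 0.49 of the range. Chance alone sets about 1 in 20 groups apart in this way. On the same array Wnt3 had its highest value (6.92) and Wnt5b its lowest (5.71) of KO replicates 1 to 10, and the floor plate list its lowest mean (6.91). In the fit with the term, whose differences are those of KO replicates 11 to 13 against WT, leaving out this array did not move them, while the adjusted p of Dkk2 with the term was 0.316 without it and 0.489 with it.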

How the results depend on the processing

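The count of members called with the term stayed at 0 in the fit to KO replicates 11 to 13 and WT only, with the replicate block, repeated quantile normalization, median centring, dim clusters left out, array weights, limma-trend and each of 25 arrays left out. It was 4 with genotype alone, 2 at an unadjusted p below 0.05 with the term, and 2 at the study's thresholds, and the count of further pathway genes was 5 with genotype alone and 0 otherwise. Clusters called, 7 with the term, were 4825 with genotype alone, 154 at the study's thresholds, 0 with the replicate block, 1 with quantile normalization, 12 with median centring, 4 without dim clusters and 30 with array weights. Leaving out arrays gave 0 (KO replicate 13) to 26 (WT replicate 10), with 19 without each of KO replicates 3, 8 and 12, 17 without KO replicate 11, 11 without KO replicate 7 and 4 without WT replicate 1. The exact test passed in 4 members, and in 0 to 6 with an array left out (1 without KO replicate 12 or WT replicate 2, 6 or 11, and 2 without WT replicate 1). Relations past the threshold, 1 of 40, were 18 of 84 with those added, 4 with median centring and 0 (without WT replicate 10) to 6 (without KO replicate 6) with an array left out, with 4 without KO replicate 4, 3 without KO replicate 3 or 10, and 2 without WT replicate 2, 7 or 9.

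Of 559 alternative values for the 17 members given in full, 550 kept the direction and the side of the threshold, and 4 were calls with genotype alone. Part of this agreement in direction was fixed beforehand. Leaving out an array of the KO set that has its own term could not move a difference. Nor could genotype alone, the fit without that KO set, leaving out dim clusters or limma-trend. These settings bear only on the p. Among the 559 values the sign turned in 5. Rspo1 had 0.54 with the replicate block and 0.13 without KO replicate 13. Rspo3 had 0.18 and Sfrp1 0.01 with the replicate block, and Lef1 had 0.01 without KO replicate 11. With an array left out, Rspo1 ran from -0.45 to 0.13 and Lef1 from -0.17 to 0.01. The cause was not tested. Replicate numbers were not taken to pair the arrays, since 4 of 12 same-numbered pairs correlated above 0.1 (-0.33 to 0.43) and 0 KO arrays correlated best with the WT array of their number. In the fit with the term, 3 KO arrays set each difference. There a change of the size seen for Wnt7b or Wnt3 has too wide an interval to be called.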
